A study of Homo sapiens with 6 samples.

Results

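Doxycycline-induced miR-22 cells were compared with doxycycline-induced NpBI-206AS cells, so that the drug was present on both sides of the comparison. The cells are RD18, a human embryonal rhabdomyosarcoma line, carrying either the NpBI-22 or the NpBI-206AS construct. The comparison used 3 of the 6 arrays of the series: NpBI-22_Induced replicates 1 and 2, which the series calls biological replicates, and the only NpBI-206AS_Induced array. These cells had received 1 ug/ml doxycycline for 6 days. The other 3 arrays, 2 of untreated NpBI-22 cells and 1 of untreated NpBI-206AS cells, were set beside them. Each array measured total RNA on an Affymetrix HuGene 1.0 ST chip, and the deposited values are log2 signals. All 33297 rows entered the model fit. The 19460 rows with exactly 1 gene symbol represent 18417 genes, and a gene with several rows was represented by the row with the highest mean.

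The control side has limits. The labels do not say what the NpBI-206AS construct expresses, nor whether either line is a clone or a pool. With 1 control array, an effect of that construct and an effect of miR-22 cannot be told apart. Both induced miR-22 arrays carry the code prefix R715 in their descriptions and the induced NpBI-206AS array carries R587. No label explains this prefix. If it marks a batch, batch and comparison cannot be told apart.

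MicroRNAs are short RNAs that guide Argonaute proteins to matching sites, mostly in the 3' untranslated regions of messenger RNAs, and thereby lower the stability and translation of those messengers. Pairing of the seed, bases 2 to 8 of the microRNA, is the main determinant of which messengers are bound. miR-22 is made from the transcript of the host gene MIR22HG and is abundant in heart and skeletal muscle. Rhabdomyosarcoma cells express muscle regulators but divide instead of completing muscle differentiation. The mature products of MIR22 are shown because the seed defines which messengers the induced microRNA can pair with. In the RefSeq records for GRCh38.p14 the 3p arm lies at chr17:1713914-1713935 and the 5p arm at chr17:1713952-1713973, both on the minus strand. Capitals mark the seed.
hsa-miR-22-3p: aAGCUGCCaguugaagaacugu
hsa-miR-22-5p: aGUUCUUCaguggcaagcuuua
In the RefSeq microRNA table used here, neither seed occurs in any other mature microRNA.

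The host gene separated the induced miR-22 arrays from everything else. MIR22HG (row 8011193) read 10.02 and 10.01 in the induced miR-22 arrays, against 6.32 in induced NpBI-206AS cells. It read 6.27 and 6.72 in non-induced miR-22 cells and 6.41 in non-induced NpBI-206AS cells. The induced pair lay far above all 4 other arrays, and those 4 lay close together. The difference from induced NpBI-206AS cells was 3.69 on the log2 scale, or 13.0-fold (limma, SE 0.24, adjusted p = 0.035). The row cannot tell the endogenous host transcript from transcript of the construct, and mature miR-22 was not measured. KLHL13, an adaptor of a CUL3 ubiquitin ligase, differed still more and is described with the other leading genes, as is KITLG, the ligand of the KIT receptor.

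A gene was called higher or lower when both induced miR-22 arrays differed at least 2-fold, a log2 difference of 1, from the induced NpBI-206AS array on the same side. By this rule 257 of 18417 genes (1.40%) were higher and 262 (1.42%) were lower, together 2.82% of genes. Of the called genes, 30 were higher and 13 lower by at least 4-fold on both arrays. The rule is a description, because a lone control array shows no spread of its own. At any size, both arrays lay above the control for 8097 genes (44.0%), below it for 6234 (33.8%) and on opposite sides for 4086. These shares and those of called genes are the background for the counts of list members below. Another 272 genes passed 2-fold on replicate 1 alone and 183 on replicate 2 alone. Just inside and outside the threshold, the smaller difference was 1.01 for AMOTL2 and 0.9997 for THYN1, and -1.002 for HSPG2 and -0.9993 for TAS2R5.

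**Figure D1:**
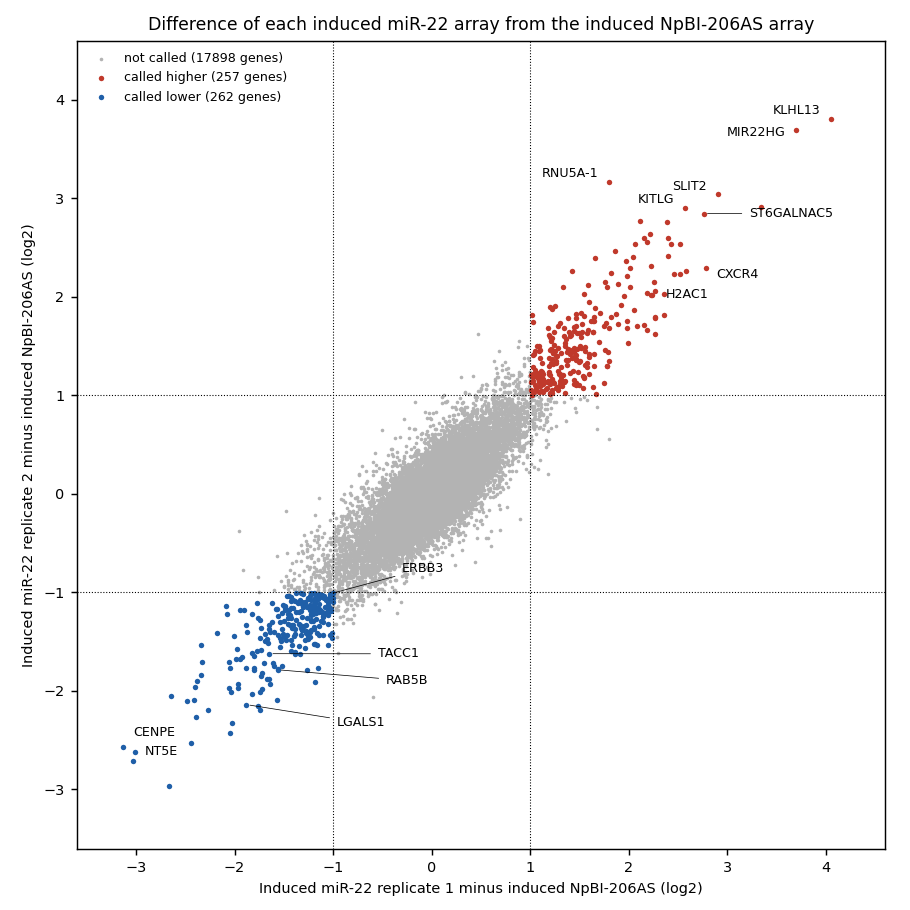
Each point is a gene, placed by the log2 difference of induced miR-22 replicate 1 (horizontal axis) and replicate 2 (vertical axis) from the induced NpBI-206AS array. Dotted lines mark 2-fold; the 257 genes called higher lie at the upper right, the 262 called lower at the lower left, and no gene was 2-fold higher on 1 replicate and 2-fold lower on the other.

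The 2-fold threshold called far fewer genes where neither side had induced miR-22. Non-induced miR-22 arrays against the induced NpBI-206AS array gave 27 genes higher (0.147%) and 6 lower (0.0326%). The non-induced NpBI-206AS array against the induced one, with a single array on each side, gave 12 higher and 8 lower, together 0.109%. None of the arrays in these counts carries the prefix R715. Non-induced miR-22 replicate 1 carries R509, and replicate 2 and both NpBI-206AS arrays carry R587. Replicate 1 differed 2-fold from the non-induced and induced NpBI-206AS arrays in 327 and 240 genes, and replicate 2 in 56 and 58. The non-induced miR-22 arrays differed 2-fold from each other in 111 genes, against 18 for the induced pair. The counts of the comparisons are thus not like for like. If the prefix marks a batch, the counts in this paragraph cannot be told apart from batch. Most called genes also stood apart from all the other cells: in 249 genes (1.35%) both induced miR-22 arrays were above each of the other 4 arrays, and in 253 (1.37%) below each. The gap was at least 2-fold from each of the 4 in 113 (0.614%) and 92 (0.500%) genes.

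For a formal test, limma fitted a mean per group over all 6 arrays and assumed that the lone control array varies like the miR-22 pairs. At an adjusted p of 0.05 it called 68 rows higher (0.204%) and 62 lower (0.186%) among all 33297. Of named genes 31 were higher (0.168%) and 14 lower (0.0760%), and all 45 were among the genes called by the 2-fold rule. The rule and limma use the same differences, so that overlap is not separate support. The limma p-values measure the spread within each pair of miR-22 arrays, and neither NpBI-206AS array adds to that spread. Leaving out any of the 4 miR-22 arrays left no row called in either direction. Without adjustment, 2511 to 6377 rows then had a limma p under 0.05.

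The arrays were alike in scale. Medians ranged from 5.66 to 5.75 and lower quartiles, used below as a mark of dim signal, from 3.93 to 4.01. Over all rows, which are not independent replicates, the correlation was 0.993 between the induced miR-22 arrays and 0.977 and 0.980 between each and the induced NpBI-206AS array. The 2 induced miR-22 arrays differed 2-fold in 18 genes, and the 2 NpBI-206AS arrays in 20. Of 9 muscle and rhabdomyosarcoma markers measured none was called, and their summed log2 levels were 70.5 and 68.8 in induced miR-22 cells and 71.0 in induced NpBI-206AS cells. MYOD1, the muscle lineage regulator, read 8.88 and 9.02 against 9.32. MYF5, another such regulator, read 3.96 and 3.92 against 3.89, close to the lower quartile.

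Markers of other cell types were mostly flat. None of 6 epithelial, 5 endothelial and 4 blood markers was called. In each of these lists only 1 marker lay under the lower quartile on all 3 arrays: EPCAM, KDR and the leukocyte marker PTPRC. The highest of each list were KRT18 (10.56 and 10.48 against 10.20), TEK (7.43 and 7.44 against 7.40) and CD14 (5.14 and 4.84 against 4.88). The 5 neural markers summed to 28.02 and 27.99 on the induced miR-22 arrays against 25.3, with SYT1 called higher. GFAP and RBFOX3 were above the control on both arrays but not called, and SOX10 and ELAVL4 lay on either side of it. The 5 fibroblast markers summed to 35.0 and 35.5 against 32.4, with DCN called higher. LUM and THY1 were above the control on both arrays but not called. COL1A1 went the other way, at 9.52 and 9.43 against 9.96, and PDGFRA was nearly level, at 4.40 and 4.27 against 4.26. The part of such cells in any result was not tested. In bulk RNA, a change in the number of cells of a type and a change in RNA per cell cannot be told apart.

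KLHL13 (row 8174654), which led the genes called higher, read 7.85 and 7.59 in induced miR-22 cells, and 3.79 in induced NpBI-206AS cells. Its non-induced levels were 3.82 and 3.97 in miR-22 cells and 3.94 in NpBI-206AS cells. The 4 other arrays were thus all near the lower quartile, and the induced miR-22 arrays far above it. The difference was 3.93 on the log2 scale (limma, SE 0.21, adjusted p = 0.035). KLHL4, a relative of KLHL13, read 7.34 and 7.74 against 5.96. These were the only members called among 46 kelch BTB genes, whose median difference was 0.09, near the 0.04 over all genes.

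KITLG (row 7965322) read 7.26 and 7.59 in induced miR-22 cells and 4.69 in induced NpBI-206AS cells. It read 4.29 and 4.31 in non-induced miR-22 cells and 4.96 in non-induced NpBI-206AS cells. The induced miR-22 arrays did not overlap with any other, and the difference was 2.74 (limma, SE 0.21, adjusted p = 0.035). KIT, its receptor, stayed under the lower quartile at 3.18 and 2.92 against 3.22. Among 26 genes of KIT ligand and growth factor receptors, 2 were called higher and 1 lower, against 1.40% and 1.42% of all genes. Their median was -0.04. PDGFD, a platelet-derived growth factor, was the other higher gene at 5.38 and 5.58 against 3.85. AXL, a receptor tyrosine kinase, was the lower one at 7.24 and 7.11 against 8.29.

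SLIT2, an axon guidance and migration cue that binds ROBO receptors, read 8.23 and 8.37 against 5.32 in induced NpBI-206AS cells. Non-induced miR-22 cells read 7.26 and 5.88, so replicate 1 lay part of the way to the induced level. The difference of 2.97 did not pass limma (SE 0.54, adjusted p = 0.091). MINAR2 showed the same split, with 5.91 and 5.48 against 2.57 and non-induced miR-22 levels of 3.98 and 2.70. NEFL, the neurofilament light chain, read 9.09 and 9.20 against 6.66. Its non-induced miR-22 levels of 8.82 and 7.80 were also well above both NpBI-206AS arrays, so the gap was much narrower against the line's own untreated cells.

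Enzymes that add sialic acid to O-linked glycans and glycolipids were among the clearest genes. ST6GALNAC5 read 7.32 and 7.40 in induced miR-22 cells against 4.55 in induced NpBI-206AS cells, with the other 3 arrays between 4.59 and 4.96. Its difference was 2.80 (limma, SE 0.18, adjusted p = 0.035). ST6GALNAC3 read 7.38 and 7.58 against 4.98, a difference of 2.50 (limma, SE 0.19, adjusted p = 0.035). No array of another group came near these levels. UST, a sulfotransferase that acts on uronic acid in glycosaminoglycans, read 8.20 and 7.99 against 5.98, and ST6GAL1 read 8.37 and 8.17 against 7.15. ST3GAL5, which makes the ganglioside GM3, was lower at 7.53 and 7.69 against 8.96, as was HS3ST3B1, a heparan sulfate enzyme, at 5.61 and 5.62 against 6.80. In all, 4 of 47 such enzymes were called higher and 2 lower, against 1.40% and 1.42% of all genes. Their median was 0.04, the same as over all genes.

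Receptors followed. CD36, a scavenger receptor that takes up fatty acids, read 6.76 and 7.14 against 4.37 (difference 2.57, limma adjusted p = 0.043). PTGER2, a receptor for prostaglandin E, read 7.30 and 6.99 against 4.72 (difference 2.42, limma adjusted p = 0.043). CXCR4, a chemokine receptor linked to cell migration, read 7.22 and 6.73 against 4.44 (difference 2.54, limma adjusted p = 0.053). In each the induced miR-22 arrays lay above all 4 others, whose highest reading was 5.44, for PTGER2 in non-induced miR-22 cells. KCTD16, an auxiliary subunit of GABA-B receptors, read 6.96 and 6.98 against 4.45.

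**Figure D2:**
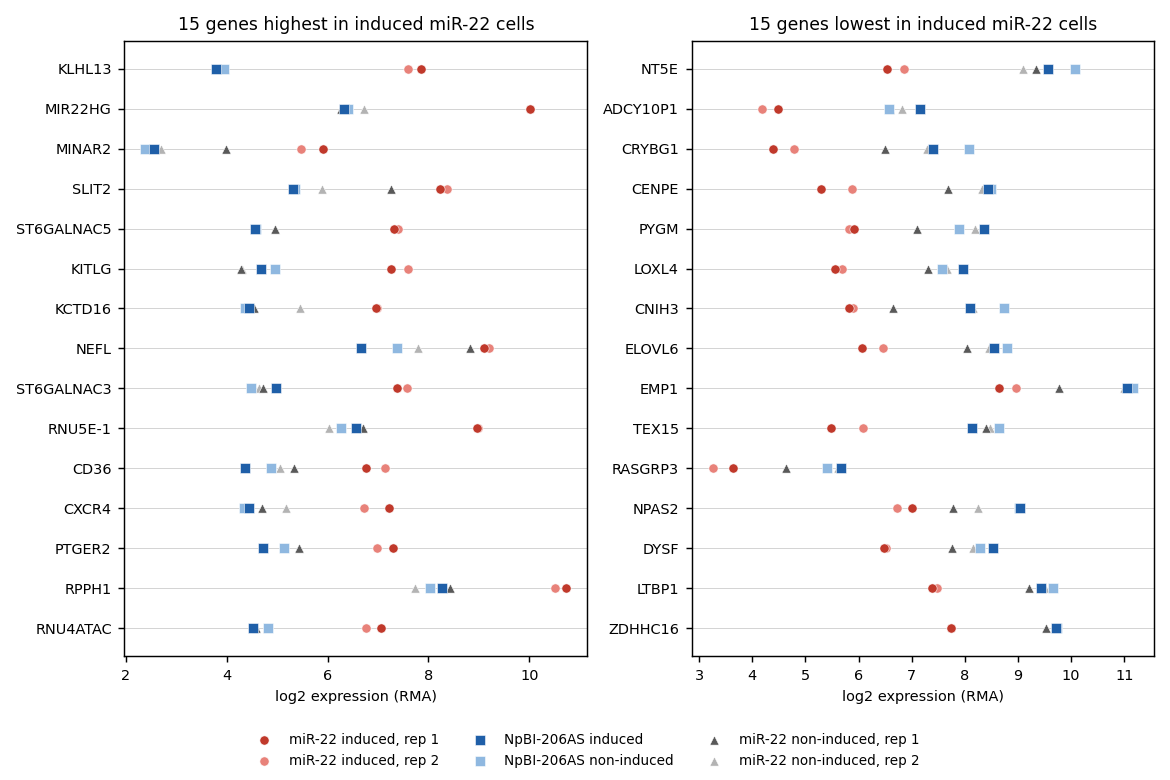
The 15 genes highest (left) and lowest (right) in induced miR-22 cells, ranked by the smaller of the 2 array differences, with the log2 RMA value of each of the 6 arrays as a point. Induced miR-22 arrays are red circles, NpBI-206AS arrays blue squares and non-induced miR-22 arrays grey triangles; the red circles lie outside the range of the other points in every gene shown, with NEFL the closest.

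Among the lowest genes, NT5E, the ecto-enzyme CD73 that makes adenosine outside the cell, read 6.53 and 6.85 in induced miR-22 cells against 9.56 in induced NpBI-206AS cells. It read 9.35 and 9.09 in non-induced miR-22 cells and 10.07 in non-induced NpBI-206AS cells. The induced miR-22 arrays were thus clearly the lowest, with a difference of -2.87 (limma, SE 0.23, adjusted p = 0.037). CRYBG1 read 4.39 and 4.78 against 7.40. LTBP1, which holds latent TGF-beta in the matrix, read 7.38 and 7.47 against 9.44 (difference -2.01, limma adjusted p = 0.046). LOXL4, a collagen cross-linking enzyme, read 5.56 and 5.70 against 7.96 (difference -2.33, limma adjusted p = 0.044).

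Other genes of the lowest 15 have varied roles. PYGM, muscle glycogen phosphorylase, read 5.92 and 5.83 against 8.35. DYSF, dysferlin, which reseals the muscle membrane, read 6.49 and 6.51 against 8.53 (difference -2.03, limma adjusted p = 0.049). ELOVL6, a fatty acid elongase, read 6.07 and 6.46 against 8.55. NPAS2, a clock transcription factor, read 7.01 and 6.71 against 9.04. ZDHHC16, a protein palmitoyltransferase, had the closest replicates of the 15 lowest genes, at 7.74 and 7.75 against 9.71 (difference -1.97, limma adjusted p = 0.043). EMP1 and CNIH3 had differences of -2.26 and -2.23, but non-induced miR-22 replicate 1 lay partway between, and neither passed limma (adjusted p = 0.13 and 0.16). The remaining genes of the lowest 15 were ADCY10P1, TEX15 and RASGRP3, with differences of -2.82, -2.35 and -2.23.

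Genes listed as miR-22 targets in the literature were more often lower than higher. Of 36 measured, 9 were called lower and 1 higher, against 1.42% and 1.40% of all genes, and the median difference was -0.35 against 0.04. Both arrays lay below the control for 24 and above it for 8, against 33.8% and 44.0% of all genes. The list was compiled with earlier results of these data known, so it is not independent evidence of direction. Whether any member was reported as a target from these same data was not checked. The median was -0.34 against the non-induced NpBI-206AS array and -0.24 and -0.35 against the non-induced miR-22 arrays.

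TACC1, a centrosome and microtubule protein, read 7.94 and 7.97 in induced miR-22 cells and 9.59 in induced NpBI-206AS cells. The other 3 arrays read 9.54, 9.62 and 9.62, so all 4 controls lay within a narrow band and the induced miR-22 arrays well under it. The difference was -1.64 (limma, SE 0.18, adjusted p = 0.049). RAB5B, a small GTPase of early endosomes, read 7.55 and 7.33 against 9.12, with the other 3 arrays between 8.59 and 8.78. Its difference of -1.68 missed the limma threshold narrowly (SE 0.20, adjusted p = 0.051). ERBB3, a receptor for neuregulins, read 5.69 and 5.70 against 6.72, with 7.10 in each non-induced miR-22 array and 6.47 in non-induced NpBI-206AS cells. ERBB3 was only just past 2-fold here (difference -1.02, limma adjusted p = 0.086), and its gap was wider against the line's own untreated cells, at -1.40.

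LGALS1, galectin-1, read 9.05 and 8.79 against 10.93 (difference -2.01, limma adjusted p = 0.049). NCOA1, a nuclear receptor coactivator, read 7.63 and 7.87 against 9.17 (difference -1.42, limma adjusted p = 0.065). PPARA, PURB, ARRB1 and WRNIP1 were the others called lower, with differences from -1.29 to -1.04. CCN1, a matricellular protein, was the list's only gene called higher, at 7.69 and 8.11 against 6.61. SP1, a general transcription factor named among miR-22 targets, read 8.78 and 8.88 against 8.69 and was not called.

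Few relatives of these targets were called. Among all genes the shares were 1.40% higher and 1.42% lower. RAB5B was the only gene called among 27 genes of early endosomes and RAB5, whose median was 0.02. TACC1 was the only one called among 9 genes of the TACC family and spindle partners, although the list's median was -0.30. Among 19 ERBB receptors, ligands and adaptors ERBB3 was lower and HBEGF, an EGF receptor ligand, higher at 8.20 and 8.48 against 7.10, with a median of 0.05.

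Replication-dependent histone genes were the largest group called higher. These genes supply the histones that package newly made DNA, and their messengers normally end in a stem-loop instead of a poly(A) tail. Of 57 measured, 21 were called higher and none lower, against 1.40% and 1.42% of all genes. On both arrays 51 lay above the control, against 44.0% of all genes. The list's median difference was 1.05, against 0.04 over all genes. Of the classes, H4 had 8 of 13 called, H2A 5 of 14, H2B 5 of 16, H3 2 of 8 and H1 1 of 6. The median was 0.80 against non-induced NpBI-206AS cells and 0.60 and 0.83 against the non-induced miR-22 arrays. Histone genes have near-identical copies, and H4C14 and H4C15 have identical rows, so members are not independent of each other.

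H4C4, a core histone H4 gene, read 9.27 and 8.94 in induced miR-22 cells and 6.91 in induced NpBI-206AS cells, with the other 3 arrays between 7.06 and 7.35. Its difference was 2.19 (limma, SE 0.22, adjusted p = 0.044). H2AC1, a testis-type H2A gene, read 9.39 and 9.19 against 7.12, a difference of 2.16 (limma, SE 0.19, adjusted p = 0.043). Those were the 2 histone genes that passed limma. H2BC1, the H2B partner of H2AC1, read 11.10 and 10.57 against 8.75, and H1-6, a testis linker histone, 6.40 and 5.75 against 4.13. The range extended down to H1-1, at -0.62, which lay below the control on both arrays. H4C3 was called higher at 11.38 and 11.23 against 9.68, but non-induced miR-22 replicate 1 read 11.32.

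The promoters of H4C4, H2AC1 and H2BC1 are shown because these genes led the histone list and were higher together. Each run is the 120 bases before the gene's start on the gene's own strand, from RefSeq for GRCh38.p14: H2AC1 at chr6:25726563-25726682 (minus), H2BC1 at chr6:25726657-25726776 (plus) and H4C4 at chr6:26189113-26189232 (minus). H2AC1 and H2BC1 point away from each other and their windows overlap. Capitals mark CCAAT or its reverse complement, and TATAAA or its reverse complement.
H2AC1: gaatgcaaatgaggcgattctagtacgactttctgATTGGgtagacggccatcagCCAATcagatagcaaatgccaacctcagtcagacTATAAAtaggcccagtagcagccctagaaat
H2BC1: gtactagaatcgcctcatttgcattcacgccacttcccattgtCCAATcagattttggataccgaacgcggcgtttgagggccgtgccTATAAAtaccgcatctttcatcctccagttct
H4C4: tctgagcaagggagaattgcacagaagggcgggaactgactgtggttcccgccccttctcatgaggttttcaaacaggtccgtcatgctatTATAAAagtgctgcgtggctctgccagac
Both strands of the 250 bases before each start were searched for each motif separately. CCAAT was present in 44 of 52 matched histone promoters (84.6%) and in 33.0% of all 27305 promoters. TATAAA was present in 34 of 52 (65.4%) and in 11.1% of all. Among called histone genes, 12 of 18 had CCAAT and 9 of 18 had TATAAA, against 32 and 25 of the 34 not called. The letters thus mark histone promoters in general and were no more frequent in the called ones.

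Small nuclear RNAs, which build the spliceosome, were grouped with products of RNA polymerase III and were the other group with a median past 2-fold. Of 29 measured, 14 were called higher and 1, the U6 pseudogene RNU6-501P, lower, against 1.40% and 1.42% of all genes. The list's median difference was 1.16. Without the dimmest 50% of rows, which leaves fewer members, the median was 1.87. It was 1.01 against non-induced NpBI-206AS cells and 1.04 and 1.39 against the non-induced miR-22 arrays. Of the genes annotated as small nuclear RNA, 13 of 20 (65.0%) were called higher. Near-identical copies of these genes may share probes.

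RPPH1, the RNA of ribonuclease P, which trims transfer RNA, read 10.73 and 10.50 against 8.27 in induced NpBI-206AS cells. RNU4ATAC, a U4 RNA of the minor spliceosome, read 7.05 and 6.76 against 4.53 (difference 2.38, limma adjusted p = 0.043). RNU5E-1, a U5 RNA, read 8.96 and 8.97 against 6.56. The other arrays lay within 1 log2 unit of the induced NpBI-206AS array in all of these. RNU2-1, the U2 RNA that pairs with the branch point, read 11.03 and 10.79 against 9.04 (difference 1.87, limma adjusted p = 0.049). RNU11, of the minor spliceosome, read 8.16 and 8.25 against 5.93, with 7.12 in non-induced miR-22 replicate 1. RNU5A-1 had widely spaced replicates, 4.03 and 5.39 against 2.23. RNY1, a Y RNA, had a mean difference of -1.33 from readings of 4.52 and 3.06 against 5.11 and was not called.

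Small nucleolar and Cajal body RNAs, which guide chemical modification of ribosomal and spliceosomal RNA, were mostly not called. Of 192 measured, 5 (2.60%) were higher and 4 (2.08%) lower, near the 1.40% and 1.42% of all genes. The list's median was -0.02. SCARNA10 read 8.16 and 8.01 against 5.98 (difference 2.11, limma adjusted p = 0.043). SNORD13 read 9.80 and 9.94 against 8.15, and SCARNA5 7.83 and 7.80 against 6.31. SNORD113-3 was the lowest member, at 4.38 and 5.004 against 6.71.

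Of 48 mitotic genes, 6 were called lower and none higher, against 1.42% and 1.40% of all genes. For the list, both arrays lay below the control for 39, against 33.8% of all genes, and the median difference was -0.46. It was -0.73 against non-induced NpBI-206AS cells and -0.64 and -0.63 against the non-induced miR-22 arrays. CENPE, the kinesin that moves chromosomes to the spindle equator, read 5.30 and 5.87 in induced miR-22 cells against 8.43 in induced NpBI-206AS cells. Non-induced miR-22 cells read 7.68 and 8.32 and non-induced NpBI-206AS cells 8.48. Even the lowest of these was well above the induced miR-22 arrays, and the difference was -2.85 (limma, SE 0.36, adjusted p = 0.055). MKI67, the proliferation antigen Ki-67, read 8.06 and 8.62 against 10.06. NUF2 and SPC24, subunits of the NDC80 kinetochore complex, read 7.70 and 8.20 against 9.46 and 6.19 and 5.47 against 7.37. CENPF and KIF15 were the others called, with differences of -1.54 and -1.20. No mitotic gene passed limma.

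No DNA replication gene of 52 was called. Both arrays lay above the control for 18 and below it for 18, against 44.0% and 33.8% of all genes. The list's median was 0.01. That sign turned under repeated quantile normalization, under cyclic loess and without induced miR-22 replicate 1. Against the other controls the list's median was lower, at -0.33 for non-induced NpBI-206AS cells and -0.17 and -0.26 for the non-induced miR-22 arrays. The largest differences were in CLSPN, a checkpoint adaptor, at 8.27 and 8.14 against 9.16, and in MCM8, a helicase of DNA repair, at 8.66 and 8.77 against 9.62. Among 33 p53 targets and cell-cycle inhibitors only TRIAP1, a p53-inducible survival factor, was called, at 9.56 and 9.59 against 8.37, and the list's median was 0.03.

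Sarcomere genes depended on which control was used. Against induced NpBI-206AS cells 1 of 43 was called higher and 3 lower, against 1.40% and 1.42% of all genes. The list's median of -0.04 changed sign when each array was centred on its median. Against non-induced miR-22 cells the medians were -0.74 and -0.72, and against non-induced NpBI-206AS cells -0.15. By the same 2-fold rule, 10 of the 43 were higher in non-induced miR-22 cells than in induced NpBI-206AS cells. Over all genes that comparison called 27 of 18417 higher (0.147%). MYH3, embryonic myosin, read 5.26 and 4.86 in induced miR-22 cells and 5.95 in induced NpBI-206AS cells, but 8.02 and 7.69 in non-induced miR-22 cells and 6.40 in non-induced NpBI-206AS cells. MYH3 was thus highest in the untreated miR-22 cells, and of the 4 other arrays the induced NpBI-206AS array lay nearest to the induced miR-22 arrays.

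Some muscle genes were called all the same. SMYD1, a methyltransferase needed for myofibril assembly, was higher at 8.45 and 8.55 against 6.80 (difference 1.70, limma adjusted p = 0.049). Non-induced miR-22 cells read 7.65 and 7.82, between the induced arrays and both NpBI-206AS arrays. NEB, nebulin of the thin filament, read 7.15 and 7.95 against 9.48, ACTN3, an alpha-actinin of fast fibres, 5.35 and 5.03 against 6.55, and CAVIN4, a muscle caveolar protein, 5.97 and 6.36 against 7.49. All 3 were lower than in any other array.

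Among 25 genes of the acetylcholine receptor and excitation-contraction coupling, 4 were lower and none higher, against 1.42% and 1.40% of all genes. Both arrays lay below the control for 16, against 33.8% of all genes, and the list's median was -0.17. CHRNG, the fetal receptor subunit, read 7.08 and 7.16 against 8.59. RYR1, the calcium release channel, read 6.43 and 6.49 against 7.67. ATP2A1, the calcium pump SERCA1, read 6.99 and 6.62 against 8.15, and STAC3, which couples the voltage sensor to RYR1, 8.74 and 8.66 against 9.86. These genes were lower than in both lines without doxycycline as well.

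Against the NpBI-206AS arrays, myogenic regulators leaned the other way. Of 34, 4 were higher and none lower than in induced NpBI-206AS cells, against 1.40% and 1.42% of all genes. Here the median was 0.20. The list's median was 0.27 against non-induced NpBI-206AS cells, but only 0.02 and 0.06 against the non-induced miR-22 arrays. MSTN, myostatin, a secreted inhibitor of muscle growth, read 11.10 and 11.50 against 10.05. HES1, a Notch target that represses myogenic genes, read 7.52 on both arrays against 6.05, and ID3, an inhibitor of MYOD1 partners, 9.78 and 10.04 against 8.75. MEF2C, a muscle transcription factor, read 8.56 and 8.90 against 7.35, but was nearly as high in non-induced miR-22 cells at 8.48 and 8.47. MEF2C thus separated all 4 miR-22 arrays from both NpBI-206AS arrays.

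**Figure D3:**
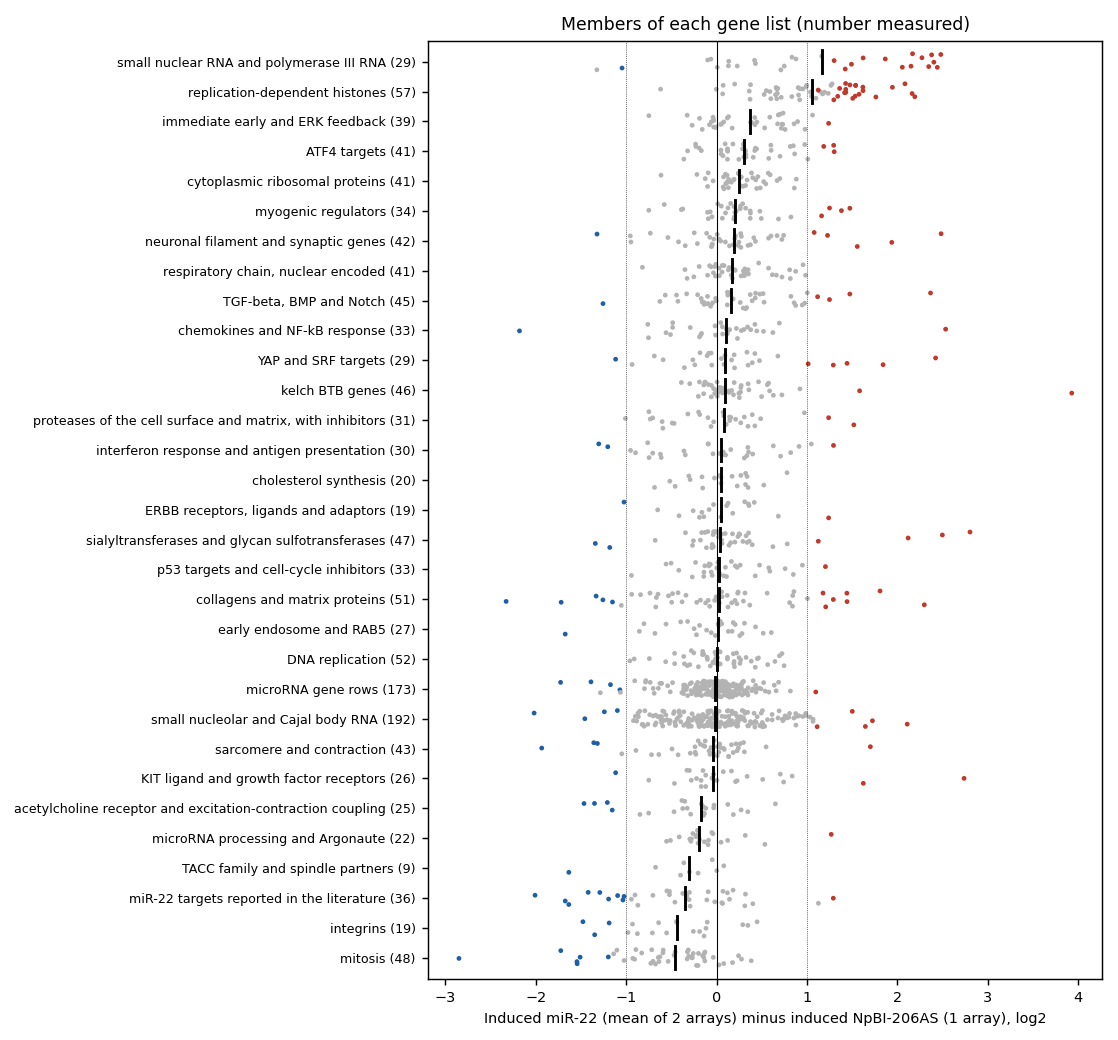
Each point is a gene of the named list (number measured in brackets), placed by the mean of both induced miR-22 arrays minus the induced NpBI-206AS array on the log2 scale. Black bars are list medians, red and blue points genes called higher and lower by the 2-fold rule, and dotted lines 2-fold; only the small nuclear RNA and histone lists have medians past 2-fold, at 1.16 and 1.05.

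Cholesterol synthesis genes also depended on the control. None of 20 was called against induced NpBI-206AS cells, where the median was 0.05. Against the 3 untreated arrays the medians were 0.67, 0.64 and 0.42. The largest differences in the matched comparison were in PMVK, phosphomevalonate kinase, at 7.94 and 7.58 against 6.98, and STARD4, a sterol carrier, at 8.28 and 8.62 against 9.14. These are of opposite sign and neither reached 2-fold.

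ATF4 targets, the genes that respond to amino acid stress, had positive medians against each control. Of 41, 3 were higher and none lower, against 1.40% and 1.42% of all genes. On both arrays 32 lay above the control, against 44.0% of all genes. The list's median was 0.30, against 0.29, 0.55 and 0.26 for the non-induced NpBI-206AS and miR-22 arrays. SLC3A2, the heavy chain of several amino acid transporters, read 10.45 and 10.52 against 9.19. ASNS, asparagine synthetase, read 8.95 and 8.86 against 7.72, and CHAC1, which degrades glutathione, 7.57 and 7.12 against 6.04. In each of the 3 the induced miR-22 arrays lay above all 4 others. None of the 3 passed limma (adjusted p = 0.088, 0.093 and 0.12).

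Housekeeping lists moved little. None of 41 cytoplasmic ribosomal protein genes was called. Both arrays lay above the control for 34, against 44.0% of all genes, and the list's median was 0.24. RPL28 and RPS19 had the largest mean differences, 0.88 and 0.86. None of 41 nuclear-encoded respiratory chain genes was called either, with a median of 0.18 and the largest mean differences in the complex I genes NDUFS4 and NDUFB3, 0.98 and 0.96.

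Of 39 immediate early and ERK feedback genes, HBEGF was the only one called, higher. The list's median was 0.38 for the mean of both arrays, but 0.29 on induced miR-22 replicate 1 and 0.24 on replicate 2 taken alone. FOS, a subunit of AP-1, read 6.96 and 7.09 against 5.96 and missed the threshold on replicate 1. EGR1 read 9.02 and 9.03 against 8.31. Against non-induced miR-22 replicate 1 this list's median was 0.06.

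YAP and SRF targets, many of them responsive to cell tension, had 5 of 29 higher and 1 lower, with a median of 0.09. Over all genes 1.40% were higher and 1.42% lower. ARHGAP29, which inactivates RHOA, read 8.36 and 8.79 against 6.15 in induced NpBI-206AS cells (difference 2.42, limma adjusted p = 0.049). It read 4.89 and 5.20 in non-induced miR-22 cells and 5.55 in non-induced NpBI-206AS cells, so the induced control was the nearest of the 4. CCN2, connective tissue growth factor, read 9.26 and 9.44 against 7.90. ANKRD1 read 8.99 and 9.83 against 7.57, but its non-induced miR-22 levels of 9.80 and 9.58 overlapped the induced ones. AMOTL2 and CCN1 were the other higher genes, and AXL the lower one.

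Matrix genes were called in both directions. Of 51 collagens and matrix proteins, 7 were higher and 5 lower, against 1.40% and 1.42% of all genes, with a median of 0.03. POSTN, periostin, read 4.99 and 5.45 against 2.92, where the control lay under the lower quartile (difference 2.30, limma adjusted p = 0.049). FBLN5, an elastic fibre protein, read 8.04 and 8.01 against 6.21. DCN, LAMA4 and THBS1 were higher as well, by 1.44, 1.21 and 1.18, and LAMA4 was nearly as high in non-induced miR-22 replicate 1, at 8.94 against 9.12 and 8.89. On the lower side, besides LOXL4, the collagen cross-linker LOX read 7.31 and 7.52 against 9.13. TNC, THBS2 and LAMC1 were lower, with differences of -1.33, -1.26 and -1.15.

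Of 19 integrins, the cell's receptors for matrix, 3 were called lower and none higher, against 1.42% and 1.40% of all genes, and no integrin passed limma. For the list, both arrays lay below the control for 15, against 33.8% of all genes. The list's median was -0.44, against -0.53, -0.29 and -0.39 for the other controls. ITGA9 read 7.33 and 7.22 against 8.76. ITGA7, the main laminin receptor subunit of muscle, read 6.54 and 6.35 against 7.79, and ITGA3 5.20 and 4.94 against 6.26. Each was lower than on any other array.

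Of 31 proteases of the cell surface and matrix with their inhibitors, 2 were higher and none lower, against 1.40% and 1.42% of all genes. Their median was 0.08. TIMP3, a metalloproteinase inhibitor, read 7.44 and 7.22 against 6.09, above all others. ADAMTS5, which cleaves aggrecan, read 8.34 and 8.77 against 7.04, but its non-induced miR-22 levels were already 8.10 and 8.04.

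In the TGF-beta, BMP and Notch list, 4 of 45 were higher and 1 lower, against 1.40% and 1.42% of all genes. Its median was 0.16. TGFB2, a TGF-beta ligand, read 6.62 and 6.99 against 4.44, with the other 3 arrays between 4.16 and 4.81 (difference 2.37, limma adjusted p = 0.043). TGFBR3, a coreceptor that presents TGF-beta2, read 7.49 and 7.55 against 6.40. HES1 and MSTN, given above, were the other higher genes. NOG, the BMP antagonist noggin, was lower at 8.85 and 9.19 against 10.28.

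Inflammatory lists were mixed, and the shares over all genes were 1.40% higher and 1.42% lower. Among 33 chemokine and NF-kB response genes CXCR4 was higher and CXCL8, interleukin-8, lower at 5.54 and 5.97 against 7.93, with a median of 0.11 that was negative against each of the other 3 controls. CXCL8 varied among untreated miR-22 cells, at 6.94 and 8.29. Of 30 interferon response and antigen presentation genes, 1 was higher and 2 lower, with a median of 0.05. The antigen peptide transporter TAP1 read 6.48 and 6.32 against 7.70, and the immunoproteasome subunit PSMB9 6.52 and 6.32 against 7.62. USP18, which restrains interferon signalling, was higher at 8.07 and 7.74 against 6.61.

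Neuronal filament and synaptic genes had 5 of 42 higher and 1 lower, against 1.40% and 1.42% of all genes. Their median was 0.19. Besides NEFL, SYT1, a calcium sensor of vesicle release, read 6.88 and 7.21 against 5.10. INA, alpha-internexin, read 8.65 and 8.80 against 7.17, and the other 3 arrays were lower still, between 6.35 and 6.67. MAP2 and ELAVL2 were higher by 1.23 and 1.08. NRCAM, a neuronal adhesion molecule, was lower at 6.98 and 7.31 against 8.47.

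Among 173 microRNA gene rows 1 was higher (0.578%) and 4 lower (2.31%), against 1.40% and 1.42% of all genes. Their median was -0.02. These rows read precursor or primary transcripts in total RNA and not mature microRNAs. MIR206 and MIR133B, muscle microRNAs that lie close together on chromosome 6, were both lower. MIR206 read 5.14 and 4.996 in induced miR-22 cells against 6.24 in induced NpBI-206AS cells, with 6.39 and 6.79 in non-induced miR-22 cells and 6.29 in non-induced NpBI-206AS cells. The induced miR-22 arrays were the lowest, with a difference of -1.17 (limma, SE 0.24, adjusted p = 0.11). MIR133B read 4.70 and 4.75 against 6.11, MIR221 3.67 and 3.83 against 5.48, and MIR21, the higher one, 6.88 on both arrays against 5.78. MIR21 was only slightly above non-induced NpBI-206AS cells, at 6.77, and non-induced miR-22 replicate 2, at 6.69. MIR100 read 2.50 and 2.53 against 3.59, level with the 2.39 and 2.77 of non-induced miR-22 cells. All these MIR100 readings, and both induced miR-22 readings of MIR221, lay under the lower quartile of their array.

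The main mature products of these rows, with the seed in capitals, are shown because none shares the seed of either miR-22 arm. Their RefSeq positions in GRCh38.p14 are chr6:52144401-52144422 (plus) for miR-206, chr6:52148988-52149009 (plus) for miR-133b, chrX:45746180-45746202 (minus) for miR-221-3p and chr17:59841273-59841294 (plus) for miR-21-5p.
hsa-miR-206: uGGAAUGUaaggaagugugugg
hsa-miR-133b: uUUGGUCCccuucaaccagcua
hsa-miR-221-3p: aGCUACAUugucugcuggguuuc
hsa-miR-21-5p: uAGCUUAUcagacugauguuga
Of 22 genes of microRNA processing and Argonaute, only LIN28B, which blocks let-7 maturation, was called, higher at 9.14 and 9.50 against 8.06. The list's median was -0.20. AGO2, the catalytic Argonaute, read 8.55 and 8.53 against 8.58.

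**Figure D4:**
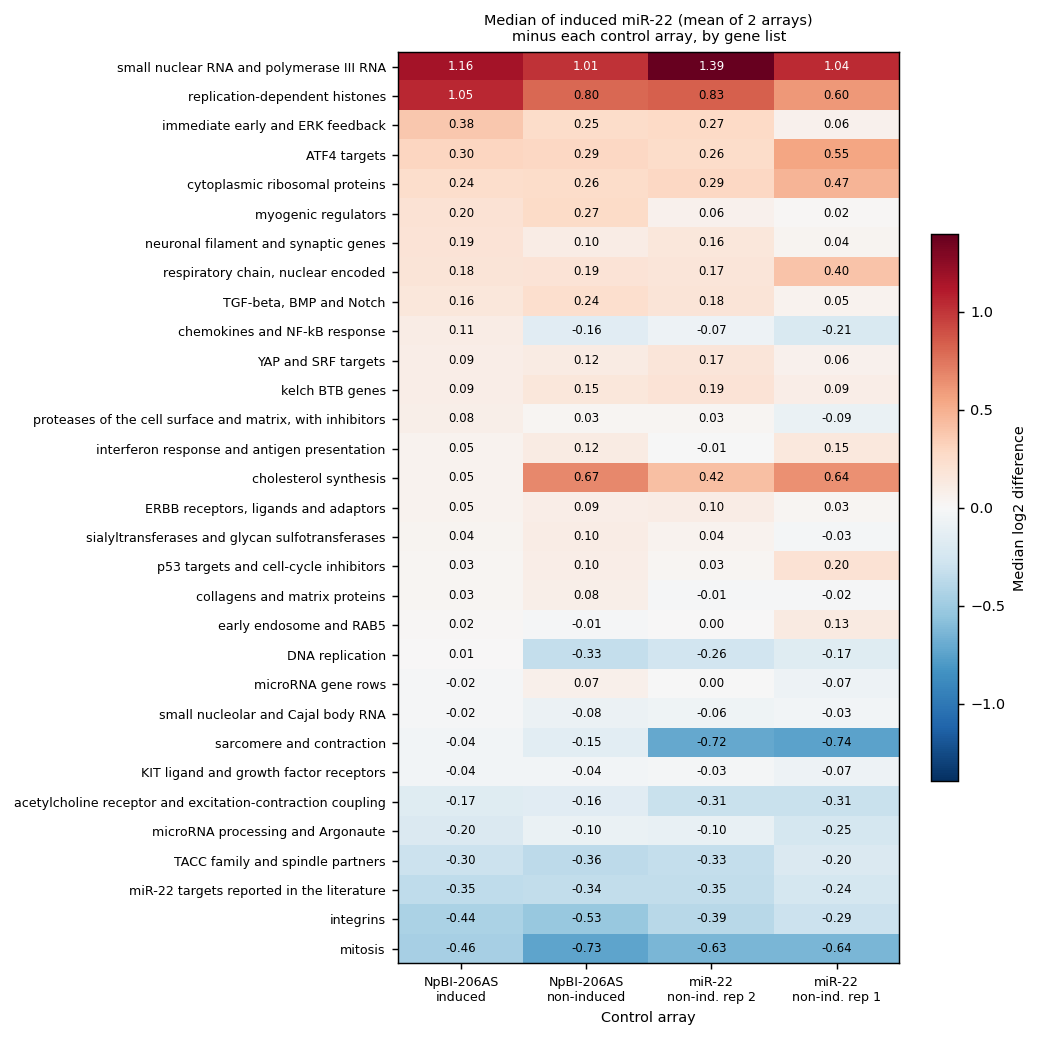
Colour and number give the median log2 difference of each gene list, taken as the mean of both induced miR-22 arrays minus each of the 4 control arrays in turn (columns). The histone and small nuclear RNA lists are positive and the mitosis, integrin and miR-22 target lists negative in all 4 columns, whereas the cholesterol synthesis, DNA replication and sarcomere lists are nearer to 0 in the first column (0.05, 0.01 and -0.04) than in the others.

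Not every called gene stood apart from all the other arrays. Of the 519 called genes, 17 were not beyond all 4 others. The lower ones were AHNAK2, MT1F, AMIGO2, THEMIS, MACC1, PTGS1, ZNF702P, MIR100 and MEIOC, and the higher ones SMPX, B3GALT2, LAMA4, GPC3, CACHD1, ANKRD1, RXRG and H4C3. MACC1 was set apart by the induced NpBI-206AS array alone: it read 3.96 and 4.14 against 5.34, while the other 3 arrays lay between 4.01 and 4.06. AHNAK2 read 5.63 and 6.03 against 7.60, with 5.95 in non-induced miR-22 replicate 1. MT1F, a metallothionein, read 6.94 and 7.14 against 8.63, with 7.09 in that replicate. GPC3, a cell-surface glypican, read 6.46 and 6.11 against 4.92, but 7.09 and 6.60 in non-induced miR-22 cells. In 26 of the genes called higher the control was under its array's lower quartile, and in 12 of those called lower both induced miR-22 arrays were.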

How the data were processed

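The authors deposited log2 expression values for 33297 rows on 6 arrays, made with Partek and RMA per the submitters' processing notes. Neither versions nor a genome build are given there. RMA already includes background correction and quantile normalization. Symbols came from the platform annotation, with 19429 of the 19460 rows with 1 symbol matched to RefSeq. Rows with several symbols (1754) or none (12083) were fitted but not named. The labels gave the groups.

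Each induced miR-22 array was compared with the induced NpBI-206AS array, and limma 3.58.1 in R 4.3.3 fitted group means over all 6 arrays with Benjamini-Hochberg adjustment over all rows. SE and adjusted p come from that fit. SDs of 2 arrays are in the same log2 unit. On simulated data for this comparison (33297 rows, 50 shifted per size), limma recovered 18% of shifts of 1 log2 unit and 100% of shifts of 2, and the 2-fold rule 28% and 100%. Among unshifted rows they called 0.0665% and 0.190%. The simulation gave all arrays the same noise per row and no line or prefix difference, so these rates hold only under that setting.

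The 31 lists and the members were chosen with earlier results of these data known. Named genes were the 15 highest and 15 lowest by the smaller difference, the 3 markers, TACC1, RAB5B, ERBB3 and MIR206, and up to 4 called members per list, or the 2 largest where none was called. Other genes were named after their values were seen. Alternatives were other normalizations, row averaging, a filter on dim rows, other fold thresholds, other controls, left-out arrays and a replicate block. Array number limits the precision.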

Additional observations from a re-analysis of the deposited data

How the results depend on the processing

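No called gene changed direction under the other normalizations, row averaging or the filter on dim rows. Such a reversal was hardly possible, because calls were at least 2-fold and the median difference over all genes reached at most 0.099. Removing 1 induced miR-22 array could neither lose nor reverse a call, because a call already required both arrays. Against the non-induced NpBI-206AS array, 257 of 257 higher and 261 of 262 lower genes kept their side, the exception being MACC1 (0.03). Against non-induced miR-22 replicate 1, 253 and 257 did. These counts are not separate support, because they reuse the induced miR-22 arrays that made the calls. The 2 NpBI-206AS arrays also differed 2-fold in only 20 genes. Under median centring, repeated quantile normalization, cyclic loess, row averaging, removal of the dimmest 50% of rows and the requirement to lie beyond all 4 other arrays, the counts stayed within 1.5 times of 257 higher and 262 lower. Without 1 induced miR-22 array they ranged from 357 to 364 higher and from 338 to 434 lower. A 1.5-fold threshold gave 949 and 908, and a 3-fold threshold 68 and 46. With controls chosen after seeing the data, the mean of both NpBI-206AS arrays gave 248 and 286, and the non-induced one 256 and 347. The limma calls (68 rows higher, 62 lower) fell to 38 lower with median centring and grew to 279 and 468 without the dimmest rows. With each miR-22 array left out in turn the range was 0 to 0, and a fit of the 3 induced arrays alone gave 0 and 0, with 6377 rows at an unadjusted p under 0.05. With a replicate block limma called 298 and 551 rows. The labels give only a number, same-numbered deviations correlated at 0.196 over 2 pairs, and nothing states that the number pairs the cultures. Of the alternative values of the counts above, 24 were within 1.5 times of the main count and 20 were not. Of those of named genes and lists, 816 moved by less than the replicate spread and 110 by more, with no called value reversed. Median differences near 0 changed sign under some alternatives for the sarcomere, DNA replication, KIT ligand, sialyltransferase, matrix, protease, interferon, endosome, microRNA and small nucleolar RNA lists. The cause of these shifts was not tested.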

Other observations

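Some related genes, chosen after their values were seen, were called in the same direction. Of the glycogen phosphorylases, the liver form PYGL was lower like the muscle form PYGM, at 8.94 and 8.92 in induced miR-22 cells against 10.12 in induced NpBI-206AS cells. The brain form PYGB was not called and read 9.90 and 9.65 against 9.24. Of the non-muscle myosin heavy chains, MYH9 was lower at 8.67 and 8.52 against 9.87 and MYH10 at 8.07 and 7.97 against 9.69. MYH14 was not called, at 5.64 and 5.74 against 6.03. The mitochondrial carriers SFXN2 (6.11 and 6.10 against 7.33) and SFXN3 (7.38 and 7.29 against 9.10, limma adjusted p = 0.044) were lower, as were the secretory GTPases RAB27A (5.76 and 5.89 against 6.95) and RAB27B (6.82 and 7.33 against 8.43). The arrestin-domain genes ARRDC3 (9.58 and 10.06 against 8.03) and ARRDC4 (5.76 and 5.78 against 4.66) were higher.

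D-type cyclins, which drive entry into the cell cycle, were called in opposite directions. CCND1 read 7.65 and 7.63 against 8.66, and CCND2 read 12.04 and 11.97 against 10.59. Non-induced miR-22 replicate 1 read 7.83 for CCND1 and 11.04 for CCND2, nearer to the induced arrays than replicate 2, at 8.46 and 10.18. Neither gene passed limma (adjusted p = 0.19 and 0.16).

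Rows without a gene symbol were called more often than named genes, and mostly lower. Of 12083 such rows 125 were higher and 485 lower, together 5.05%. Of 1754 rows with several symbols 25 were higher and 75 lower, together 5.70%. These rows were not followed further.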
